A study of Zea mays with 24 samples.

Results

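TC260239, TC270539 and TC268077 are 3 probes for carbon fixation transcripts of maize, 2 for contigs of expressed sequence tags annotated as NADP-dependent malic enzymes and 1 for a contig annotated as RuBisCO small subunit 1. They were matched by these contig names in the annotation tables of the study, and they are 3 of 7900 probes with a value among 21939 on the array. All 3 were chosen by their ratios of A619 over W23 in leaf and in anthers of 1 mm and 1.5 mm, so those ratios are given here as a description without a test. Two-colour hybridisation to 60-mer oligonucleotide arrays compared an A619 derivative, called A619 here, and the F1 hybrid ND101/W23, each with the inbred W23, a line that carries bz2. The hybrid had ND101 as its seed parent and W23 as its pollen parent, so a W23 genome was present on both sides of its comparison. Plants of all 3 lines were grown in the field, and each line gave 3 samples of 1 mm anthers, 1.5 mm anthers, fully expanded juvenile leaf and mature pollen. A 1 mm anther sample usually came from 1 tassel, and pollen was pooled within a plant. The 36 biological samples filled 24 arrays, and each of the 12 W23 samples was hybridised with A619 on 1 array and with ND101/W23 on another, so the comparisons of the lines share their W23 samples.

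Maize is a C4 plant, in which CO2 is first fixed as a C4 acid in the mesophyll and released again in the bundle sheath. NADP-dependent malic enzyme of bundle sheath chloroplasts splits malate into pyruvate and CO2, and RuBisCO, built of nuclear-encoded small subunits and chloroplast-encoded large subunits, fixes that CO2 in the Calvin cycle. Other NADP-dependent malic enzymes act outside photosynthesis and supply pyruvate and NADPH in many plant tissues.

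All values are log2 ratios of a line over W23 for 1 array, so a value below 0 stands for a lower level in the line than in W23. A ratio carries no absolute level, and no level is compared between probes. A call required an adjusted p under 0.05 in limma, with Benjamini-Hochberg adjustment over all probes, and the same sign on all 3 arrays of the comparison. The whole array gives the scale of these ratios. The median SD of a probe over 3 arrays lay between 0.18 and 0.33 in the 8 comparisons, and the middle 95% of probe means spanned -2.19 to 2.02 in A619 leaf and -0.94 to 1.13 in ND101/W23 leaf. The array medians of the study's lists of probes found in 1 tissue, without the members, stayed between -0.50 and 0.44 on every array. They came to -0.46 in A619 and -0.40 in ND101/W23 for the list of 330 pollen-specific probes on the leaf arrays of replicate 3, against -0.08 to -0.01 on the other leaf arrays of both lines. The list of 218 probes specific to 1 mm anthers read -0.45, -0.50 and -0.39 on the A619 arrays of 1.5 mm anthers, against 0.08, -0.17 and 0.19 on those of ND101/W23. The part of these shifts in the results of the same arrays was not tested. Leaving out 1 replicate removes it from both lines and leaves 2 arrays a group, and in most comparisons fewer probes were then called over the whole array. In ND101/W23 leaf, 0 probes were called without replicate 1, 79 without replicate 2 and 447 without replicate 3, against 810 with all arrays. For A619 minus ND101/W23 in leaf the counts were 8, 685 and 1414, against 1656. A call lost in this way there says little about the single probe.

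**Figure D1:**
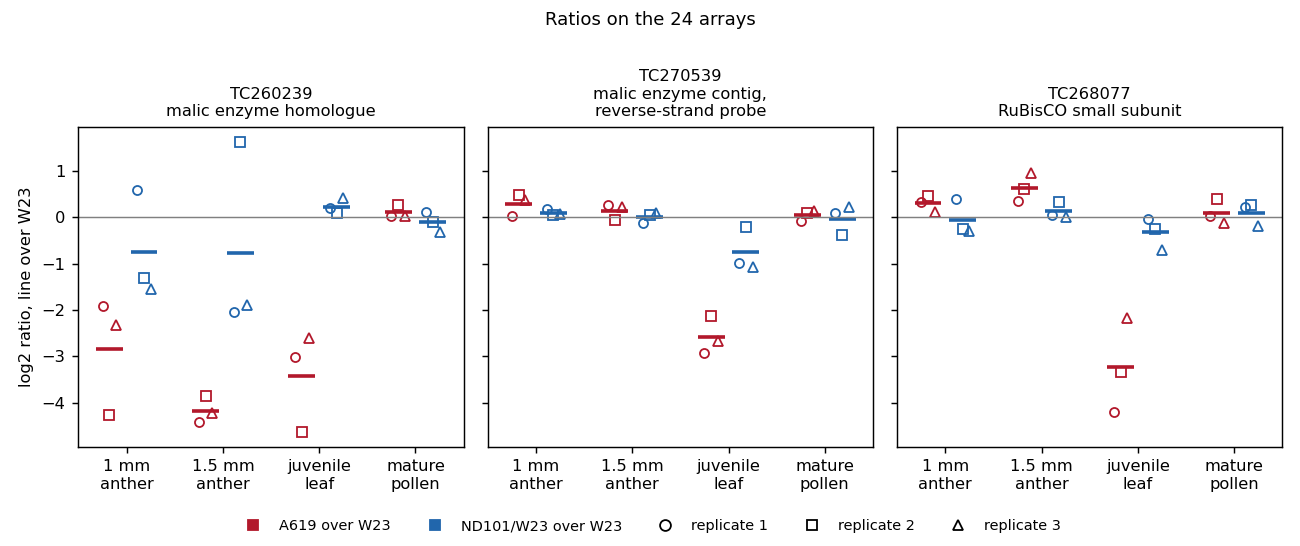
Log2 ratio of A619 (red, left) and ND101/W23 (blue, right) over W23 for each member by tissue. Each symbol is 1 array and each bar is the mean of 3 arrays. TC260239 lay at -1.92 or lower on the 9 A619 arrays of anthers and leaf, whereas TC270539 and TC268077 lay that low on the 3 A619 leaf arrays only.

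The malic enzyme homologue TC260239 was below W23 in A619 anthers and leaf, and it was the only member that was low in A619 anthers. Its contig matches part of an NADP-dependent malic enzyme, and the study listed it as specific to 1.5 mm anthers. In 1.5 mm anthers, the log2 ratios of A619 over W23 were -4.43, -3.87 and -4.22 on the 3 arrays. The mean of -4.17 ± 0.28 (SD, n = 3) stands for an 18-fold lower level in A619, and it was the 2nd lowest of 7876 probe means in that comparison. The SD of 0.28 was close to the 0.22 of the median probe. The 3 arrays thus lay close together, and none overlapped the hybrid's range. In whole organs such as these, fewer cells of a type and less RNA per cell cannot be told apart. A sequence difference under the probe was not tested either.

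In A619 1 mm anthers, the ratios of TC260239 were -1.92, -4.27 and -2.32, with a mean of -2.84 ± 1.26 (SD, n = 3), a 7.14-fold lower level. This was the 10th lowest of 7900 probe means, although replicate 2 was much lower than the other arrays and the SD of 1.26 stood beside 0.18 for the median probe. In A619 juvenile leaf, the ratios were -3.02, -4.64 and -2.61, with a mean of -3.42 ± 1.07 (SD, n = 3), a 10.7-fold lower level and the 55th lowest of 7885. Replicate 2 was again the lowest. All 9 A619 arrays of anthers and leaf were therefore below W23 for this probe. The study called the probe present in every line only in 1.5 mm anthers, so in the other tissues at least some of its spots may have been near background, and the signals themselves are not analysed here.

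Mature pollen was the exception for TC260239. The A619 ratios were 0.04, 0.28 and 0.04, with a mean of 0.12 ± 0.14 (SD, n = 3), and the 95% interval ran from -0.19 to 0.43 (limma adjusted p = 0.833). The pollen arrays did not overlap the A619 arrays of any other tissue. Whether the transcript is present in pollen at all cannot be read from these ratios.

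In the hybrid, TC260239 spread widely between the arrays of each anther stage. In ND101/W23 1 mm anthers, the ratios were 0.59, -1.30 and -1.54 (mean -0.75, limma adjusted p = 0.397). The hybrid 1.5 mm stage gave -2.04, 1.64 and -1.89 (mean -0.76, limma adjusted p = 0.705). In each anther stage, 2 arrays were below W23 and 1 was above it. The SD in 1.5 mm anthers was 2.08, against 0.28 for the median probe, and it rested on replicate 2. Without replicate 2 of both lines the mean was -1.97 and passed the test (limma adjusted p = 0.00248), so the call depended on that replicate. Over all probes, 923 were called without replicate 2 in that comparison, against 313 with it. On the array of replicate 2 that read 1.64, the hybrid carried the same dye as on replicate 3, which read -1.89.

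In leaf of the hybrid, the ratios of TC260239 were 0.20, 0.09 and 0.41, with a mean of 0.23 and a 95% interval from -0.60 to 1.07 (limma adjusted p = 0.695). The SD was 0.16 in the hybrid and 1.07 in A619 leaf, and the interval rests on both. The lowest hybrid leaf array was thus above every A619 leaf array, by more than the range of either line. Hybrid pollen gave 0.11, -0.09 and -0.31 (mean -0.10, limma adjusted p = 0.929). The hybrid's leaf minus anther difference was 0.99 ± 0.66 (SE), with an interval from -0.40 to 2.38, and did not pass the test (limma adjusted p = 0.314). Without replicate 2 that difference was 1.52 and passed (limma adjusted p = 0.0348).

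Each W23 sample met both lines, so the difference between the lines can be taken against the same W23 RNA. For TC260239 in leaf, A619 minus ND101/W23 was -3.22, -4.73 and -3.02 for the 3 W23 samples. For 1.5 mm anthers it was -2.39, -5.51 and -2.33, and for 1 mm anthers -2.51, -2.97 and -0.78. A619 was below the hybrid for all 9 W23 samples of these tissues. In pollen, the same difference was -0.07, 0.37 and 0.35, with no common sign.

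TC270539, the 2nd malic enzyme probe, was low in A619 leaf and near 0 in anthers and pollen of both lines. In hybrid leaf it was also below W23, with a mean of -0.76 that was not called (limma adjusted p = 0.0751). Its contig is annotated as the chloroplast precursor of an NADP-dependent malic enzyme, and the study listed the probe as specific to leaf. The annotation does not say whether this is the form of the C4 cycle. The probe lies in reverse orientation on that contig, while the probes of TC260239 and TC268077 lie forward. In the study's table of sense and antisense probe pairs, the antisense probe was the reversed one on 127 of 129 contigs. TC270539 may therefore read the strand opposite to the malic enzyme mRNA, and its ratios are reported as those of the probe and not of the enzyme. Of 863 leaf-specific probes with a value, 279 (32.3%) lie in reverse.

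In A619 leaf, the ratios of TC270539 were -2.93, -2.14 and -2.68, with a mean of -2.58 ± 0.40 (SD, n = 3), a 5.99-fold lower level and the 138th lowest of 7885 probe means. The 3 arrays were closer together than those of the other members in that tissue. A619 anthers of 1 mm gave 0.03, 0.49 and 0.37 (mean 0.30 ± 0.24 SD), and those of 1.5 mm gave 0.28, -0.05 and 0.22 (mean 0.15 ± 0.18 SD). A619 pollen gave -0.08, 0.09 and 0.15 (mean 0.05, interval -0.30 to 0.41, limma adjusted p = 0.959). The leaf arrays thus stood apart from the 9 other A619 arrays, the lowest of which was -0.08.

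In ND101/W23 leaf, TC270539 was also below W23 on all 3 arrays, at -0.98, -0.21 and -1.08. The mean was -0.76 ± 0.22 (limma SE), with a 95% interval from -1.27 to -0.24, and the call was not made (limma adjusted p = 0.0751, unadjusted p = 0.0107). With the shared W23 sample as a replicate block, the same mean passed the test (limma adjusted p = 0.00825). The block takes out differences between the W23 samples, which are part of the error of a ratio to W23. Compared across tissues within the hybrid, the leaf ratio was lower than that of the anthers by a difference of -0.81 ± 0.20 (SE), with an interval from -1.23 to -0.39 (limma adjusted p = 0.0111 in the fit of all 24 arrays). This was 1 of 3 members called in that contrast, beside 15.4% of all probes. The study did not list the probe as present in anthers, so the contrast sets a leaf ratio against ratios of spots that may be near background, and it is not read as a difference in expression between tissues. It was not called without replicate 1 (-0.72, limma adjusted p = 0.182) or without replicate 3 (-0.64, limma adjusted p = 0.222).

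The other hybrid ratios of TC270539 were 0.18, 0.05 and 0.08 for 1 mm anthers, -0.13, 0.06 and 0.10 for 1.5 mm anthers, and 0.10, -0.39 and 0.22 for pollen. Their means lay between -0.02 and 0.10, with limma adjusted p from 0.655 to 0.99. Against the same W23 samples, A619 minus ND101/W23 in leaf was -1.95, -1.93 and -1.60, the tightest of the line differences in leaf among the 3 members. In the other tissues this difference had both signs.

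TC268077, the RuBisCO small subunit probe, was strongly low in A619 leaf and slightly high in A619 anthers. The small subunit is made in the cytosol from nuclear genes and imported into the chloroplast. The product name of this contig is that of the tomato protein, and the study listed the probe as specific to leaf. In A619 leaf, the ratios were -4.20, -3.33 and -2.18, with a mean of -3.24 ± 1.01 (SD, n = 3), a 9.43-fold lower level and the 66th lowest of 7885. The smallest of these was on replicate 3, where A619 carried the other dye than on replicates 1 and 2. With a dye coefficient in the fit the mean was -3.15.

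In A619 anthers of 1 mm, TC268077 read 0.33, 0.47 and 0.12 (mean 0.31 ± 0.18 SD), and at 1.5 mm 0.35, 0.61 and 0.97 (mean 0.64 ± 0.31 SD). All 6 anther arrays were thus above W23 and all 3 leaf arrays below it. The study did not list the probe as present in anthers, so these are ratios of spots that may be near background. A619 pollen gave 0.03, 0.39 and -0.11 (mean 0.10, interval -0.26 to 0.47, limma adjusted p = 0.888).

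In the hybrid leaf, TC268077 read -0.03, -0.24 and -0.70. The mean of -0.32 had a 95% interval from -1.15 to 0.50 and did not pass the test (limma adjusted p = 0.571). The SD was 0.34 in the hybrid and 1.01 in A619 leaf, and both enter this test, so it sets no close limit on a difference from W23. The 3 hybrid arrays lay above all 3 A619 leaf arrays. The hybrid gave 0.39, -0.24 and -0.30 at 1 mm, 0.05, 0.33 and 0.01 at 1.5 mm, and 0.23, 0.26 and -0.18 for pollen, with limma adjusted p from 0.795 to 0.934. For the 3 W23 samples, A619 minus ND101/W23 in leaf was -4.17, -3.09 and -1.48.

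Over the 4 hybrid comparisons with W23, none of 12 tests of the members was called in limma, where the spread is shared with A619. In limma, 1 had an unadjusted p under 0.05 (TC270539 in leaf). None was called by Rank Products, which ranks the hybrid arrays alone. The share of all probes called was 7.05% at the 1 mm stage, 3.96% at the 1.5 mm stage, 10.3% for leaf and 0.937% for pollen. In A619 pollen, none of 3 was called by limma or Rank Products or had an unadjusted p under 0.05, beside 1.53% of all probes.

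The order of the A619 means differed by tissue. In leaf, TC260239 (-3.42), TC268077 (-3.24) and TC270539 (-2.58) overlapped in their arrays, so no order is drawn among them. At both anther stages, TC260239 alone was below W23 on all 3 arrays, and these did not overlap the arrays of the other probes. In pollen, the 3 means lay between 0.05 and 0.12 with overlapping arrays. For the hybrid, the arrays of TC260239 (0.09 to 0.41) and TC270539 (-1.08 to -0.21) did not overlap in leaf.

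A separate probe for maize ssu1, a RuBisCO small subunit gene named in the gene table of the platform, gives another reading of the same subunit. In A619 leaf, ssu1 read -3.17, -3.62 and -0.64, with a mean of -2.48 ± 0.55 (limma SE, limma adjusted p = 0.0105). That SE comes from the spread of both lines and not from these 3 arrays alone. The A619 minus ND101/W23 difference in leaf was -2.83 ± 0.78 (SE, limma adjusted p = 0.0428), a contrast in which 21% of all probes were called. The probe was thus lower in A619 leaf, as TC268077 was, and in both probes replicate 3 was the nearest to W23. The A619 leaf call was lost without replicate 1 (limma adjusted p = 0.117) or replicate 2 (limma adjusted p = 0.0632), and the call of the difference likewise (limma adjusted p = 0.337 without replicate 1 and 0.136 without replicate 2). In A619 1.5 mm anthers, ssu1 was higher than in W23, at 0.67, 1.25 and 1.18 (mean 1.03 ± 0.17 SE, limma adjusted p = 0.00829). That call was lost without replicate 3 (limma adjusted p = 0.0999). Rank Products called ssu1 neither in A619 leaf (adjusted p = 0.0646) nor in A619 1.5 mm anthers (adjusted p = 0.154).

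In ND101/W23 leaf, ssu1 read 1.04, -0.29 and 0.32 (mean 0.36, limma adjusted p = 0.702), and hybrid 1.5 mm anthers gave 0.35, 0.40 and -0.14 (mean 0.20, limma adjusted p = 0.679). In 1 mm anthers and pollen of both lines, the means of ssu1 lay between -0.17 and 0.27 and none was called. Over 24 arrays, Pearson's r of TC268077 with ssu1 was 0.88 and Spearman's rho 0.54. The arrays share W23 samples, and 2 of the A619 leaf arrays lie far from the rest on both axes, so the value is a description. Without the 3 A619 leaf arrays r was 0.38. Whether the probes bind transcripts of the same gene was not tested.

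**Figure D2:**
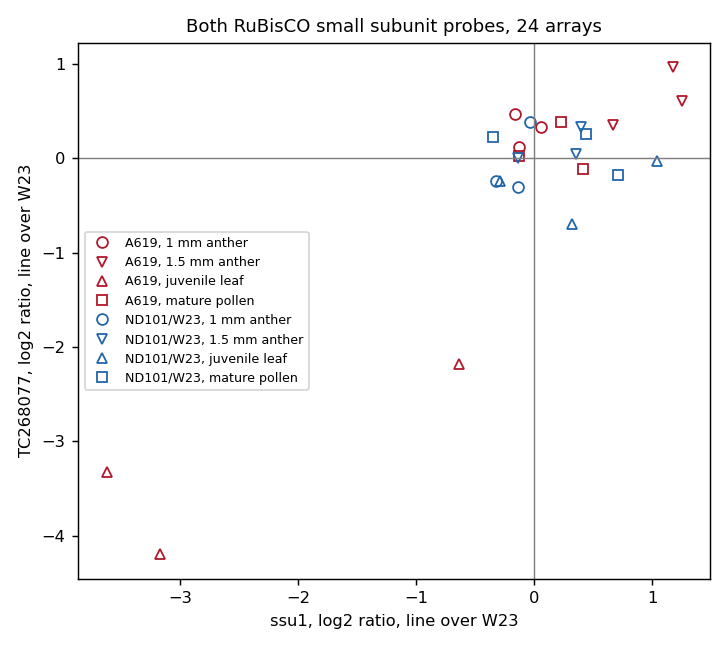
Log2 ratio over W23 of TC268077 (vertical axis) against ssu1 (horizontal axis) on 24 arrays, A619 in red and ND101/W23 in blue, with a symbol for each tissue. The A619 leaf arrays have the lowest values on both axes, and the A619 array of replicate 3 in leaf lies at -0.64 for ssu1 and -2.18 for TC268077.

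Further probes named in the platform table belong to steps next to the members. PPCK1 encodes PEP carboxylase kinase, which phosphorylates the enzyme of primary CO2 fixation and relieves its inhibition by malate. In A619 leaf, it read -5.13, -5.01 and -4.18, with a mean of -4.77 ± 0.22 (limma SE, limma adjusted p = 9.15e-05), the 20th lowest of 7885. In ND101/W23 leaf, it read -0.83, -1.38 and -0.65 (mean -0.95, limma adjusted p = 0.0429), a call lost without replicate 1 (limma adjusted p = 0.267) or replicate 2 (limma adjusted p = 0.165). PPCK1 was therefore lower than W23 in leaf of both lines, and lower in A619 than in the hybrid by a difference of -3.82 ± 0.32 (SE, limma adjusted p = 0.00161). Without replicate 1 the limma adjusted p of that difference was 0.0524. Rank Products called PPCK1 in A619 leaf and not in hybrid leaf (adjusted p = 0.14). In anthers and pollen of both lines, its means lay between -0.14 and 0.41 and none was called.

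The gene rca1 encodes RuBisCO activase, which removes inhibitory sugar phosphates from RuBisCO. It read -1.31, -0.53 and -1.0 in A619 leaf (mean -0.95, limma adjusted p = 0.00788) and 1.34, 1.41 and 0.74 in ND101/W23 leaf (mean 1.16, limma adjusted p = 0.0186). It was lower than W23 in A619 leaf and higher than W23 in hybrid leaf, with a difference of -2.11 ± 0.28 (SE, limma adjusted p = 0.00377). Without replicate 1 the limma adjusted p was 0.105 for A619 leaf, 0.201 for hybrid leaf and 0.073 for the difference, and without replicate 2 that for hybrid leaf was 0.0731. Rank Products called rca1 in neither leaf comparison (adjusted p = 0.419 in A619 and 0.119 in ND101/W23). TC268077 and ssu1 were not called in hybrid leaf by limma. Of the 2 measured probes named in the platform table for the triose phosphate translocator, which exports the product of the Calvin cycle from the chloroplast, 1 was lower in A619 leaf (mean -0.58, limma adjusted p = 0.0119) and 1 read -0.02 (limma adjusted p = 0.887). The lower one was not called without replicate 1 (limma adjusted p = 0.132) or replicate 2 (limma adjusted p = 0.0773), or by Rank Products (adjusted p = 0.765). A further translocator probe, on the lists described next, was lower in A619 leaf (mean -0.84, limma adjusted p = 0.00534), and it was added after its value was seen.

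**Figure D3:**
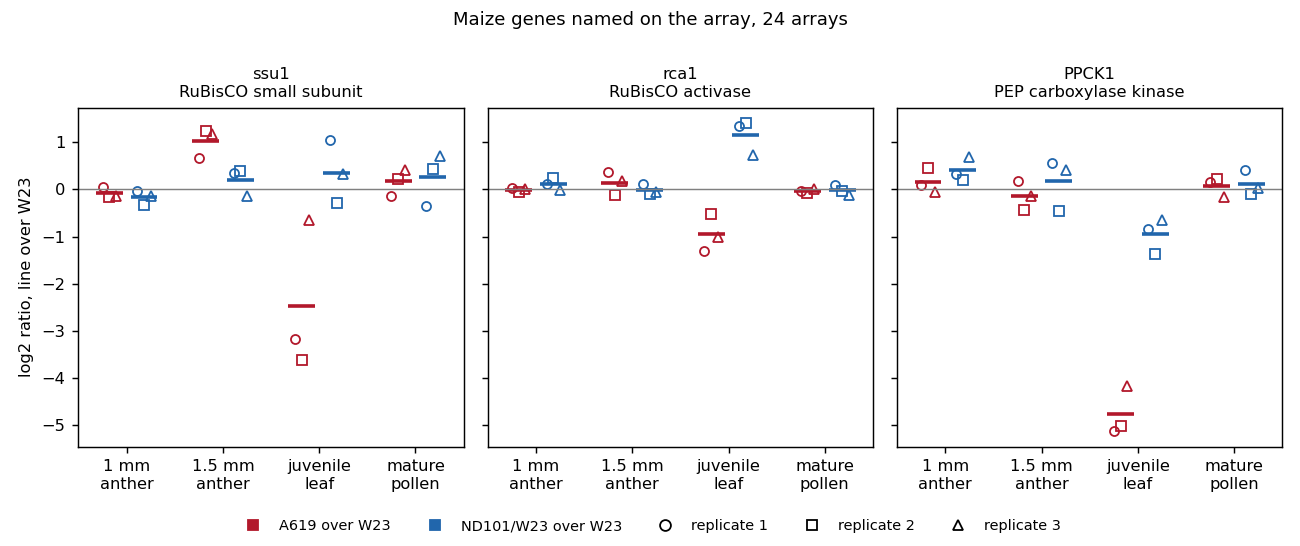
Log2 ratio of A619 (red, left) and ND101/W23 (blue, right) over W23 for ssu1, rca1 and PPCK1 by tissue. Each symbol is 1 array and each bar the mean of 3. In leaf PPCK1 was below W23 in both lines, while rca1 was below W23 in A619 and above it in ND101/W23.

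Other photosynthesis genes came from lists chosen by product name among the probes named in the study's tables of tissue-specific transcripts and its qRT-PCR panel. Such probes are no sample of all photosynthesis genes, and the background of all probes was not chosen in this way. The lists held 37 probes, 34 of them with a value. Of these, 15 belong to the C4 cycle, the Calvin cycle or photorespiration, 15 to the light reactions, 3 to triose phosphate export and sucrose synthesis, and 1 is a pyruvate kinase. In A619 leaf, 2 of these 34 were called higher and 11 lower, together beside 41.9% of all probes called (23.9% higher and 18% lower). Their median ratio was -0.32, against -0.03 over all probes. The share called in either direction was thus near the background in that tissue. More of the calls were lower than higher, as on the study's own leaf-specific list, where 182 of 861 probes were called lower and 94 higher. The pathway lists can share probes with that list, so the counts are not independent. On the C4 cycle, Calvin cycle and photorespiration lists, 4 of 15 were lower and none was higher. The glycine decarboxylase probe among those called lower is reversed.

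In A619 leaf, 18% of all probes were called lower and 23.9% higher. Of the 9 probes of the C4 cycle list, 3 were lower in A619 leaf and none was higher. All 3 are named here, the smaller ones after their values were seen. They were chloroplast adenylate kinase, which recycles the AMP made in PEP regeneration (-1.98, -2.38 and -1.18, mean -1.85, limma adjusted p = 0.000815), carbonic anhydrase TC259337, which supplies bicarbonate (mean -0.72, limma adjusted p = 0.0175), and NADP malate dehydrogenase TC271033, which makes malate (mean -0.43, limma adjusted p = 0.0437). The malate dehydrogenase probe is another reversed one. Its call was lost without any 1 of the 3 replicates (limma adjusted p of 0.105 to 0.207), in the fit of all 24 arrays (0.0743), with a dye coefficient (0.0513) and by Rank Products (adjusted p = 0.938). The call of carbonic anhydrase was lost without replicate 1 (limma adjusted p = 0.181) or replicate 2 (limma adjusted p = 0.0943) and by Rank Products (adjusted p = 0.649). The other carbonic anhydrase probes of the list were not called in leaf of either line. In A619 leaf, the probe named putative carbonic anhydrase had a mean of -0.21 (limma adjusted p = 0.215). Carbonic anhydrase TC269142 had a mean of -0.14 there (limma adjusted p = 0.4). The 2 PEP carboxylase probes and the pyruvate,orthophosphate dikinase probe were not called in leaf of either line. The PEP carboxylase probe BQ619525 is reversed, so it may not read the mRNA. TC269937, a probe for PEP carboxylase, read -0.09, -2.18 and 1.16 in A619 leaf and 1.28, -0.47 and 1.82 in ND101/W23 leaf. Its arrays spread too widely for a direction in either line, and in both lines replicate 2 was the lowest.

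Adenylate kinase and carbonic anhydrase TC259337 were lower in A619 than in ND101/W23 leaf, by differences of -1.68 ± 0.31 (SE, limma adjusted p = 0.0116) and -1.34 ± 0.26 (SE, limma adjusted p = 0.0127). Both were lost without replicate 1 (limma adjusted p = 0.145 for adenylate kinase and 0.16 for carbonic anhydrase) and without replicate 2 (0.0572 for adenylate kinase and 0.0631 for carbonic anhydrase). The same difference was 0.08 for the putative carbonic anhydrase probe (limma adjusted p = 0.8). For carbonic anhydrase TC269142 it was -0.16 (limma adjusted p = 0.593), so neither was called. Of the 4 measured probes of the Calvin cycle and RuBisCO assembly list, none was called in leaf of A619 or ND101/W23. The shares of all probes called were 41.9% and 10.3%, and the aldolase probe on this list is reversed. In A619 1.5 mm anthers, the beta subunit of the RuBisCO-binding protein, a chaperonin that folds RuBisCO subunits, was lower (-1.15, -0.80 and -0.82, mean -0.92, limma adjusted p = 0.00383), while TC268077 was above W23 on all 3 of those arrays. The chaperonin call was lost without replicate 1 (limma adjusted p = 0.0516) or replicate 3 (limma adjusted p = 0.0799).

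**Figure D4:**
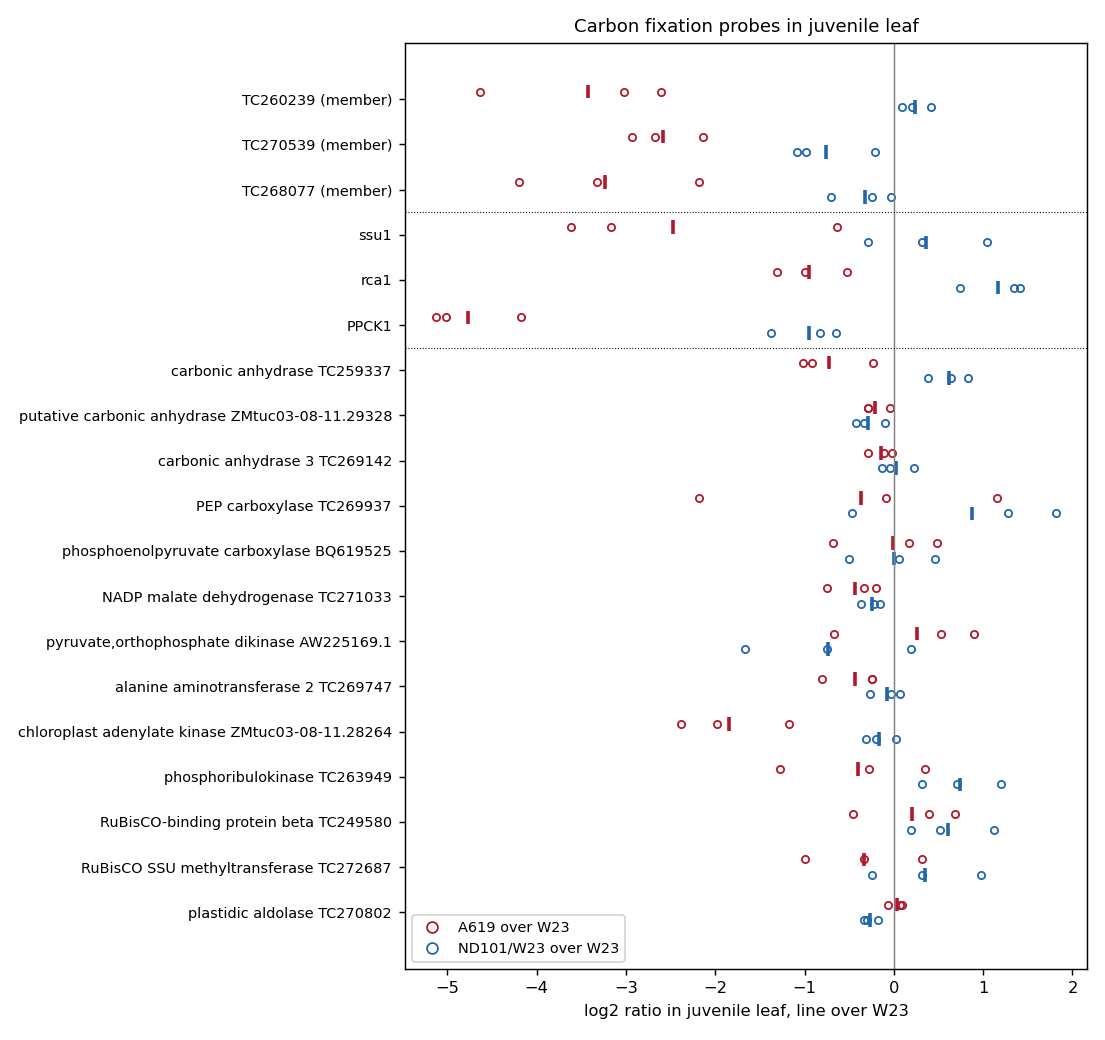
Log2 ratio in juvenile leaf of A619 (red, upper) and ND101/W23 (blue, lower) over W23 for the members, for ssu1, rca1 and PPCK1, and for the C4 cycle and Calvin cycle lists. Each circle is 1 array and each bar the mean of 3. The members, ssu1, PPCK1 and adenylate kinase have A619 means of -1.85 or lower, and the other probes lie between -0.95 and 0.25 in A619.

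Beyond carbon fixation, cytosolic fructose-1,6-bisphosphatase TC249796, an enzyme of sucrose synthesis, was lower in A619 leaf (-1.30, -1.61 and -1.45, mean -1.45, limma adjusted p = 0.000694), again with a reversed probe. Of the 15 probes of the light reactions, 5 were lower and 2 higher in A619 leaf, beside 18% and 23.9% of all probes. The lowest were a ycf3 probe, a factor of photosystem I assembly (-3.19, -3.23 and -2.05, mean -2.82, limma adjusted p = 0.000304), and photosystem II subunit K (-2.04, -1.77 and -2.52, mean -2.11, limma adjusted p = 0.0006). The 2nd ycf3 probe, TC251425, was reversed and had a mean of -1.43 (limma adjusted p = 0.00262). The CP47 probe, named for an antenna protein of photosystem II and also reversed, was higher (mean 0.85, limma adjusted p = 0.0136), a call lost without replicate 1 (limma adjusted p = 0.0521) or replicate 2 (limma adjusted p = 0.0826). A reversed ferredoxin probe (mean -0.84, limma adjusted p = 0.00193) and chain 5 of the NAD(P)H-quinone oxidoreductase (mean -0.84, limma adjusted p = 0.0223) were lower. The oxidoreductase call was lost without replicate 1 (limma adjusted p = 0.183) or replicate 2 (limma adjusted p = 0.0966). By Rank Products, 1 of the 34 was called in A619 leaf, the forward ycf3 probe. The adjusted p of Rank Products was 0.0823 for photosystem II subunit K, 0.13 for adenylate kinase, 0.218 for the bisphosphatase, 0.226 for TC251425 and 0.489 for ferredoxin.

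In ND101/W23 leaf, 5 of the 34 list probes were called, all lower and all of the light reactions, beside 10.3% of all probes called (4.41% lower). They were TC251425 of ycf3 (mean -1.52), cytochrome b6 (-1.30), photosystem II subunit K (-1.21), the psbB cluster (-1.14) and CP43 (-0.97), with limma adjusted p from 0.0145 to 0.0454. The probes of TC251425, cytochrome b6 and CP43 are reversed, so these may not be readings of the mRNA. Without replicate 1, where no probe on the array was called, the means of the 5 were -1.70 to -1.07. With the replicate block 12 of the 34 were called, and Rank Products called TC251425 alone. In A619 1.5 mm anthers, 4 of 34 were called, beside 20.3% of all probes. Photosystem II subunit K (1.57, 1.62 and 1.80, mean 1.66, limma adjusted p = 0.000788) and CP47 (mean 0.71, limma adjusted p = 0.0323) were higher, and the RuBisCO-binding protein and adenylate kinase (mean -0.70, limma adjusted p = 0.0232) were lower. Without replicate 1 or without replicate 3, 1 of the 34 was called there. Photosystem II subunit K was thus on opposite sides of W23 in A619 1.5 mm anthers and leaf, as TC268077 and ssu1 were.

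In the other comparisons few list probes were called. In ND101/W23 1 mm anthers, 1 of 34 was (a photosystem I subunit F probe, mean -1.83, limma adjusted p = 0.0173, lost without replicate 2 or replicate 3), beside 7.05% of all probes. In limma, none of 34 was called in A619 1 mm anthers, beside 4.14% of all probes, in ND101/W23 1.5 mm anthers or in pollen of either line. The counts at an unadjusted p under 0.05 there were 2 in A619 1 mm anthers, 0 in ND101/W23 1.5 mm anthers, 3 in A619 pollen and 2 in ND101/W23 pollen, and Rank Products called none.

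The probes with a product name whose ratios were most like those of each member over 24 arrays were found by Pearson's r among 1190 such probes. For TC260239 they were TC276057, whose product name reads FalseDAD1 as given (r = 0.84), TC258155, similar to an Arabidopsis protein (0.83), and TC261622, an aminoalcoholphosphotransferase homologue (0.80). The first 2 of these are on the same 1.5 mm anther list and were also the first 2 by Spearman's rho, at 0.82 and 0.81. For TC270539 they were AW119980, named only by a partial match to a viral protein (0.94), TC261773, similar to an ABC transporter (0.93), and TC268077 itself (0.91). For TC268077 they were AW119980 (0.95), AW400247, weakly similar to an embryogenesis protein (0.92), and TC268316, similar to a hypothetical rice protein (0.92). All of these are on the leaf list.

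The r of TC260239 was 0.20 with TC270539 and 0.26 with TC268077. All these values include the A619 leaf arrays, whose ratios chose the members. Without the 3 A619 leaf arrays, r of TC270539 with TC268077 was 0.50, and r of TC260239 was -0.44 with TC270539 and -0.48 with TC268077. By Spearman's rho, TC270539 and TC268077 reached 0.60, TC268077 was no longer among the 3 probes most like TC270539, and other probes took every place for both leaf members, with rho between 0.73 and 0.83.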

How the data were processed

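The deposited log2 ratios of the authors were used as they are. Per the study's methods and labels, images were read with Agilent Feature Extraction, saturated spots were dropped, probes above a negative-control limit in at least 1 comparison were kept (so a kept probe can have values from spots under that limit), and ratios were normalised within arrays on rank-invariant probes with loess and scaled within triplicates. Ratios keep neither the signal nor the background, so the precision of a single spot cannot be given, and only the spread between arrays is. Per array, 7884 to 7900 probes had a value, and array medians lay between -0.04 and 0.04. Dye labels disagreed between sources, and the direction was taken from the sign of tabulated ND101/W23 ratios of the study (36 of 36 values of at least 0.5 in size had the same sign as here). No tabulated A619 ratio was used for this check. The deviations of A619 and hybrid arrays that share a W23 sample, and with it the dye, correlated positively in 12 of 12 pairs. Probe numbers were joined at an offset of 3, at which 22 of 22 accessions matched.

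Each tissue was fitted with limma 3.58.1 in R 4.3.3 on its 6 arrays, with line as the factor. Contrasts between tissues of the hybrid came from a fit of all 24 arrays. P-values measure only the spread between these samples. The members and lists were chosen with earlier results of these data known; ssu1, rca1, PPCK1 and the translocator probes were added by gene name. Named list genes were the called probes with the largest mean ratios, up to 8 per comparison, and like probes were the 3 with the highest r, over at least 20 arrays. Pairing follows the array numbers, and arrays of both lines with the same number in a tissue share the W23 sample and also the dye. Their deviations correlated at 0.198 to 0.645 (12 pairs), others at -0.571 to 0.227 (24 pairs). Deviations from a group mean sum to 0, which lowers the others, and W23 sample and dye cannot be told apart in these values. Alternatives were median centring, 1 fit of all arrays, a dye coefficient, a replicate block, Rank Products, probes with a value on all arrays (7817), no requirement of a common sign, and leaving out each replicate. Scripts were tested on simulated data.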

Additional observations from a re-analysis of the deposited data

Results flagged for a closer look

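Some member ratios took opposite signs on all 3 arrays of both groups set side by side, and these differences were not tested. For TC260239 in A619, pollen was above W23 and the other tissues below it, with differences in means of 2.96 from 1 mm anthers, 4.29 from 1.5 mm anthers and 3.54 from leaf. For TC260239 in leaf, A619 was below and ND101/W23 above W23, a difference of -3.66. For TC268077 in A619, leaf was below and anthers above W23, with differences of -3.54 from 1 mm anthers and -3.88 from 1.5 mm anthers, and in ND101/W23 the leaf minus 1.5 mm anther difference was -0.45. For TC270539, leaf minus 1 mm anther was -2.88 in A619 and -0.86 in ND101/W23.

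Other differences passed limma's test. The ratio of TC270539 was lower in leaf than in anthers of ND101/W23 by a difference of -0.81, where the anther ratios are of spots the study did not call present. In leaf, A619 minus ND101/W23 was called for PPCK1 (-3.82), ssu1 (-2.83), rca1 (-2.11), chloroplast adenylate kinase (-1.68) and carbonic anhydrase TC259337 (-1.34).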

How the results depend on the processing

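Of 243 alternative values for the members, 237 kept the direction and the call, or stayed within 1 SD where no test was made. None of the called values changed sign. Where no test was made, leaving out 1 replicate cannot move the mean by as much as 1 SD with so few arrays. Those values met the limit in advance, so their share of the 237 is no evidence of stability. Values called in neither setting were not given a direction. For TC270539 in ND101/W23 leaf (-0.76), 1 fit of all 24 arrays gave limma adjusted p = 0.00361 and the replicate block 0.00825, both at -0.76, so that both made the call. Leaving out 1 replicate moved it between -1.03 and -0.59, and the hybrid's leaf minus anther difference of that probe between -1.09 and -0.64. For TC260239 the same ranges were -1.97 to -0.12 in ND101/W23 1.5 mm anthers and 0.42 to 1.52 for leaf minus anthers.

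The count of list probes called moved more. In A619 1 mm anthers (0 in limma), 1 was called by the 24-array fit and by the replicate block. In A619 1.5 mm anthers (4), the 24-array fit gave 7, the replicate block 9, Rank Products 2 and leaving out 1 replicate 1 to 7. In A619 leaf (13), Rank Products gave 1 and leaving out 1 replicate 7 to 11. In A619 pollen (0), the 24-array fit gave 1. In ND101/W23 1 mm anthers (1), the 24-array fit, the dye coefficient and the replicate block gave 2 each, and leaving out 1 replicate 0 to 1. In ND101/W23 leaf (5), the 24-array fit gave 8, the dye coefficient 10, the replicate block 12, Rank Products 1 and leaving out 1 replicate 0 to 2. The cause was not tested, except that leaving out a replicate leaves 2 arrays a group. Of 610 alternative values for named list genes and added genes, 75 lost the call and no called one turned its sign. Rank Products ranks within all probes, and in A619 leaf it called 299 probes, against 3312 in limma. The replicate block called 3966 there and changed no other call of the members.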
